A study of Mus musculus with 8 samples.

Results

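The 9 genes used as markers of meningeal fibroblasts were followed across all 8 arrays of a mouse series on mucopolysaccharidosis VII: Lum, Dcn, Aebp1, Slc6a13, Igf2, Igfbp2, Ogn, Bgn and Fmod. They were taken by gene symbol, as every probe set whose only listed gene was 1 of the 9. All 9 were on the array, among 12393 genes, with 19 of the 22626 probe sets that are no controls. The tissue was hippocampus from the right hemisphere, 1 array per mouse. The mutants were 4 animals with both copies of Gusb carrying the mps allele (mps/mps), and the normals were 4 animals labelled mps/+. Per the labels, both genotypes shared the bl6 strain background named B6.C-H2-Kbm1/ByBir, and Gusb encodes beta-glucuronidase, a lysosomal enzyme that degrades glycosaminoglycans. The strain name therefore labels the normals as carriers, but whether each of them carried the allele is not settled by the labels. Both genotypes came from carrier matings and were caged together. Mutants 1 to 4 were a female of 38.3 weeks, 2 males of 25.6 weeks and a female of 19.6 weeks. Normals 1 to 4 were a female of 38.3 weeks, a male of 25.6 weeks, a male of 19.6 weeks and a female of 14.6 weeks.

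Meningeal fibroblasts form the layers that wrap the brain, and related fibroblasts line its larger vessels. They lay down collagen and secrete the proteins that space and bind collagen fibrils. Lum (lumican), Dcn (decorin), Bgn (biglycan), Fmod (fibromodulin) and Ogn (osteoglycin) belong to the small leucine-rich repeat proteoglycans, many of which carry glycosaminoglycan chains. Aebp1 encodes a secreted collagen-binding protein of the matrix. Slc6a13 encodes a transporter of GABA and taurine. Igf2 is an imprinted growth factor gene and Igfbp2 encodes a protein that binds it, and both are also expressed by the choroid plexus, the epithelium that makes cerebrospinal fluid.

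Several members lie beside a relative in the RefSeq gene order of GRCm38.p6. Dcn and Lum are adjacent on chromosome 10, followed by Kera and Epyc of the same family. Ogn follows Ecm2, Aspn and Omd on chromosome 13, and Fmod follows Optc and Prelp on chromosome 1. Slc6a13 is followed by Slc6a12 on chromosome 6, and Igfbp2 by Igfbp5 on chromosome 1. The RefSeq table of promoter windows, 300 bases across a gene's start, held 7 of the 9 members, Aebp1, Slc6a13, Igf2, Igfbp2, Ogn, Bgn and Fmod. The windows of 4 of these are shown: Aebp1 and Slc6a13, whose values in mutants and normals did not overlap, and Bgn and Ogn, matrix members whose values did. All 4 lie on the plus strand of GRCm38.p6, at chr11:5861616-5861915 for Aebp1, chr6:121300038-121300337 for Slc6a13 (the first of its 3 listed starts), chrX:73483351-73483650 for Bgn and chr13:49607765-49608064 for Ogn. Capitals mark every match, on either strand, to GGGCGG (the GC box), TATAAA (the TATA box), CCAAT (the CAAT box), TGANTCA (the motif of AP-1 factors) and TAAACA (a forkhead motif), and overlapping matches run together.
Aebp1: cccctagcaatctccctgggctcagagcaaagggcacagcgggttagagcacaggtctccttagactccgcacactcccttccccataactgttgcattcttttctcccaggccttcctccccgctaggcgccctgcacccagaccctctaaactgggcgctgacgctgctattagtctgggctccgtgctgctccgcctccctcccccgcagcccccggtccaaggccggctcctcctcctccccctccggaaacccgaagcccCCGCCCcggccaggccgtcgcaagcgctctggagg
Slc6a13: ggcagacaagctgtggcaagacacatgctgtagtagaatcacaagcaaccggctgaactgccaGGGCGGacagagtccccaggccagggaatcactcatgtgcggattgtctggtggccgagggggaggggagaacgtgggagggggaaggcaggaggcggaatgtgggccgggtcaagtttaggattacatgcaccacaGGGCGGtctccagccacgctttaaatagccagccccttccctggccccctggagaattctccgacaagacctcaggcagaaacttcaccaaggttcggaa
Bgn: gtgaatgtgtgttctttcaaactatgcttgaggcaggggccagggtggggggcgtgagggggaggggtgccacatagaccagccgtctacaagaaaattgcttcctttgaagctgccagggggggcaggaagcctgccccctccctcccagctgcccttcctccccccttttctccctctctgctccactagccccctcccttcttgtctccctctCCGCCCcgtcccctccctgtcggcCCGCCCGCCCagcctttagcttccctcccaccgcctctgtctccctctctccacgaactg
Ogn: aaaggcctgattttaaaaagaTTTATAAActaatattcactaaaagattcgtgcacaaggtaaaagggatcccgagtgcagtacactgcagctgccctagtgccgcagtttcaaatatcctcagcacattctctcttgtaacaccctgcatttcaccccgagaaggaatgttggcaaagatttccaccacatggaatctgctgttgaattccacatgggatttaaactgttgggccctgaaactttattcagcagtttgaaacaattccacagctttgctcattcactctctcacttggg

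GGGCGG was found 1 time in the Aebp1 window, 2 times in that of Slc6a13 and 3 times in that of Bgn. TATAAA was found 2 times in the Ogn window, at overlapping places. Of all 32851 listed windows, 35.7% held GGGCGG and 13.6% held TATAAA. The other motifs, absent from these 4 windows, were in 37.4% (CCAAT), 7.81% (TGANTCA) and 13.4% (TAAACA) of all windows. These are matches of letters only.

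The values are log2 levels per probe set, and levels of different probe sets are not comparable with each other. The mutated gene Gusb served as a check of the labels. One of its 2 probe sets read 4.51, 4.71, 4.36 and 4.62 in mutants 1 to 4, against 6.56, 5.40, 5.83 and 6.02 in normals 1 to 4 (difference -1.40 ± 0.23 SE, limma adjusted p = 0.136). All mutants lay below all normals there, while the other probe set gave means of 5.93 ± 0.48 in mutants and 5.77 ± 0.53 in normals (SD, n = 4 each). Array medians lay between 6.09 and 6.17. The highest of 27 bacterial control probe sets reached 3.72, which is taken as the background. Of the 19 member probe sets, 17 lay above it in every array and 2 (1 of Igf2, 1 of Fmod) in none, so that each gene kept at least 1 measured probe set. In a measure of RNA quality normal 1 stood apart, with a mean 3 prime minus 5 prime difference of 3.58 for actin and Gapdh against 0.22 to 0.75 in the other 7 arrays. In tissue content the arrays differed within both groups. The mean log2 level of 11 choroid plexus genes was 8.11 in mutant 1 and 7.05 in mutant 3, against 5.17 and 5.24 in mutants 2 and 4, and lay between 4.44 and 5.23 in normals. For 6 striatal genes that mean ran between 6.60 and 7.70 in mutants, and was 10.1, 7.44, 10.4 and 9.34 in normals 1 to 4. Normal 2 thus lay within the range of the mutants, and only normals 1, 3 and 4 lay above it.

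The series compares the mutant with the normal hippocampus. All 17 measured member probe sets had a higher mean in mutants, as did 47.1% of all probe sets, and for 4 of them (Lum, Slc6a13 and both of Aebp1) every mutant lay above every normal. None of the 19 passed an adjusted p of 0.05 in limma over all probe sets, where 0.0796% of probe sets passed as higher, 0.00884% as lower and 0.0884% in either direction. At an unadjusted p under 0.05, 8 of the 19 were higher and 0 lower, beside 3.14% of all probe sets higher and 2.81% lower. Over all probe sets, 1.81% had no overlap with mutants higher and 1.75% with mutants lower. With 1 probe set per gene (the one with the highest mean), the median difference of the 9 genes was 0.83 on the log2 scale, and over all 12393 genes it was 0.011. Of those 12393 genes, 6509 had a higher mean in mutants. At an unadjusted limma p under 0.05, 501 of them were higher and 306 lower. The gene lists below also use 1 probe set per gene. The 9 genes were chosen with results of these data known, so these counts describe them and do not test them. In whole tissue, more cells of a type and more RNA per cell cannot be told apart.

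**Figure D1:**
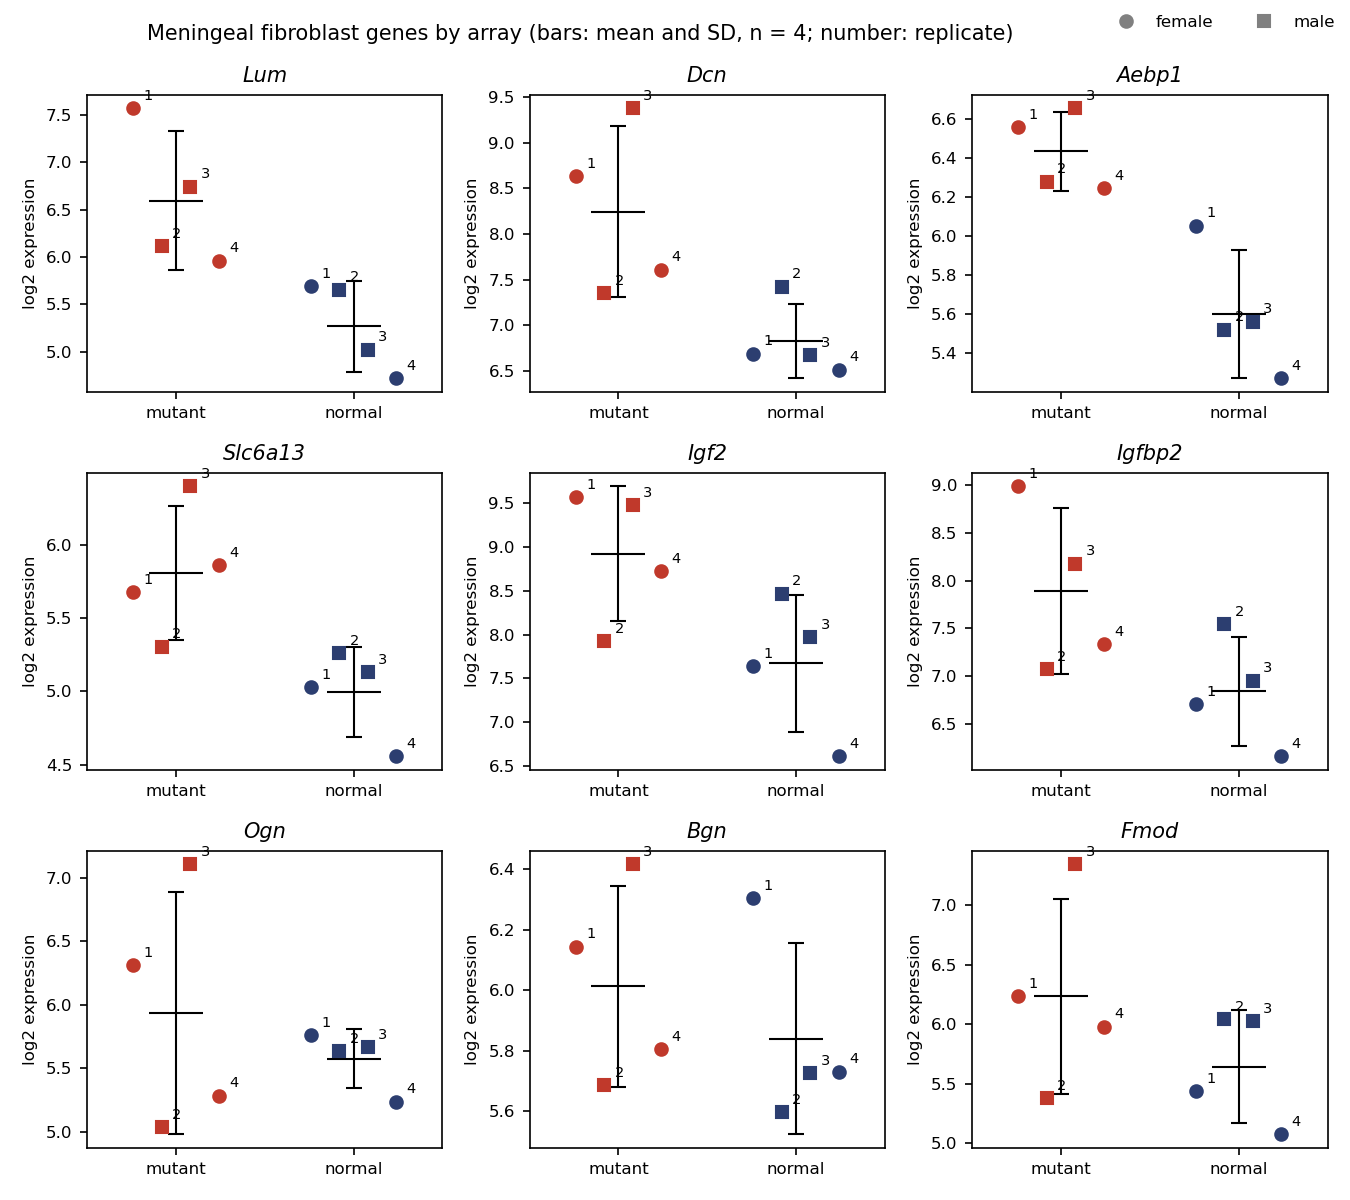
Log2 expression (y axis) of the 9 genes in each array, mutants left and normals right, with the probe set of the highest mean per gene; points are animals with their replicate number, circles females and squares males, and bars give the mean and SD (n = 4). Mutants 1 and 3 were the highest pair in 7 of 9 genes, and normal 4 was the lowest array in 7 of 9.

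Among the matrix genes, Lum and Dcn had the largest differences. Lum had log2 levels of 7.57, 6.11, 6.74 and 5.96 in mutants 1 to 4, against 5.69, 5.65, 5.02 and 4.72 in normals 1 to 4. Every mutant was above every normal, mutant 1 by the most. The means were 6.60 ± 0.73 in mutants and 5.27 ± 0.48 in normals (SD, n = 4 each), a log2 difference of 1.33 ± 0.38 (SE), or 2.51-fold. It did not pass in limma (adjusted p = 0.586), and the two-sided exact permutation p was 0.0286, the smallest that 8 arrays allow.

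Dcn had log2 levels of 8.64, 7.35, 9.38 and 7.61 in mutants 1 to 4, against 6.68, 7.42, 6.67 and 6.51 in normals 1 to 4. Mutants 1, 3 and 4 lay above all normals, while mutant 2 lay just under normal 2. The means were 8.24 ± 0.94 in mutants and 6.82 ± 0.41 in normals (SD, n = 4 each), with a log2 difference of 1.42 ± 0.44 (SE), or 2.68-fold (limma adjusted p = 0.668, two-sided exact permutation p = 0.0571). Mutants 2 and 3, males of the same age, differed from each other by 2.03 on the log2 scale, which is more than the difference between the group means.

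The next 2 genes on the chromosome were low on these arrays. Kera was not above the bacterial controls in any array. Epyc had a mean of 2.61 in mutants, below the controls, and of 3.57 in normals, where normals 1, 3 and 4 were above them (unadjusted p = 0.0259, limma adjusted p = 0.805).

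Aebp1, by its brighter probe set, had the least spread among mutants of the 9 genes. Its brighter probe set read 6.56, 6.28, 6.65 and 6.25 in mutants 1 to 4, against 6.05, 5.52, 5.56 and 5.27 in normals 1 to 4. Its other probe set read 6.66, 6.11, 6.57 and 6.51 in mutants, against 5.97, 5.65, 4.95 and 4.84 in normals. On both, all 4 mutants lay above all 4 normals. The log2 differences were 0.83 ± 0.18 (SE), 1.78-fold, and 1.11 ± 0.27 (SE), 2.16-fold. Their limma adjusted p were 0.360 and 0.416, the smallest of any member, and their two-sided exact permutation p was 0.0286 each.

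Slc6a13, the transporter gene, had log2 levels of 5.68, 5.30, 6.40 and 5.86 in mutants 1 to 4, against 5.03, 5.26, 5.13 and 4.56 in normals 1 to 4. The groups did not overlap, but mutant 2 was above normal 2 by only 0.045 on the log2 scale. The difference was 0.82 ± 0.25 (SE) on the log2 scale, or 1.76-fold (limma adjusted p = 0.647, two-sided exact permutation p = 0.0286). The adjacent gene Slc6a12, whose product carries betaine and GABA, was not above the bacterial controls in any array.

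The growth factor gene Igf2 and the gene of its binding protein, Igfbp2, had a similar order of arrays. Igf2 had log2 levels of 9.57, 7.92, 9.48 and 8.72 in mutants 1 to 4, against 7.64, 8.47, 7.97 and 6.61 in normals 1 to 4. Igfbp2 read 8.99, 7.07, 8.18 and 7.33 in mutants, against 6.71, 7.54, 6.95 and 6.16 in normals. For both, mutants 1 and 3 were highest, normal 4 was lowest, and mutant 2 lay within the range of the normals. The log2 differences were 1.25 ± 0.47 (SE), 2.38-fold, for Igf2 and 1.05 ± 0.45 (SE), 2.07-fold, for Igfbp2. Neither passed in limma (adjusted p = 0.8085 for Igf2 and 0.82903 for Igfbp2), and the two-sided exact permutation p were 0.0857 and 0.114. The other Igf2 probe set lay between 2.43 and 2.69 in all arrays, below the controls, and gives no level.

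Of 14 other genes of the insulin-like growth factor axis measured, 0 passed in limma, 2 were higher at an unadjusted p under 0.05 and 0 lower, and their median difference was 0.13. These were Igfbp5, the neighbour of Igfbp2 (0.72 ± 0.27, SE), and Igf1, a growth factor gene (1.20 ± 0.46, SE), each with a limma adjusted p of 0.809. Igf1 ordered the mutants in another way, with 6.26, 7.99, 6.69 and 7.20 in mutants 1 to 4, against 6.16, 6.77, 5.23 and 5.16 in normals 1 to 4. Mutant 2, the lowest mutant for Igf2, was the highest for Igf1. The receptor gene Igf2r, whose product takes Igf2 to lysosomes, had log2 levels of 7.53, 7.55, 7.81 and 7.49 in mutants 1 to 4, against 7.60, 7.29, 7.05 and 7.44 in normals 1 to 4, and was chosen after its values were seen.

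The remaining proteoglycan genes, Ogn, Bgn and Fmod, overlapped between the groups on every measured probe set. Ogn had log2 levels of 6.31, 5.04, 7.10 and 5.28 in mutants 1 to 4, against 5.76, 5.63, 5.67 and 5.24 in normals 1 to 4. Mutants 1 and 3 lay above all normals and mutant 2 below all of them. Its mean was 5.93 ± 0.95 in mutants and 5.57 ± 0.23 in normals (SD, n = 4 each), so the spread among mutants was larger than the difference of 0.36 ± 0.42 (SE, limma adjusted p = 0.938). The other Ogn probe set gave 0.75 ± 0.46 (SE, limma adjusted p = 0.898), again with mutants 1 and 3 highest.

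Bgn had log2 levels of 6.14, 5.69, 6.42 and 5.81 in mutants 1 to 4, against 6.30, 5.60, 5.73 and 5.73 in normals 1 to 4. Normal 1, with the large 3 prime minus 5 prime difference, was second to mutant 3, and the difference was 0.17 ± 0.21 (SE, limma adjusted p = 0.939). The other 2 Bgn probe sets differed by 0.28 ± 0.12 and 0.33 ± 0.24 (SE).

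Fmod was measured by 6 probe sets, of which 5 lay above the controls. The brightest read 6.24, 5.38, 7.34 and 5.98 in mutants 1 to 4, against 5.44, 6.04, 6.02 and 5.07 in normals 1 to 4. Mutant 3 stood highest and mutant 2 was below normals 1, 2 and 3. The 5 differences ran from 0.16 to 0.59 on the log2 scale, and the lowest limma adjusted p among them was 0.813, for the probe set with a difference of 0.51 ± 0.20 (SE). Without mutant 3 they ran from 0.032 to 0.32, with the brightest at 0.22. These 5 all target 1 gene and are not independent.

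**Figure D2:**
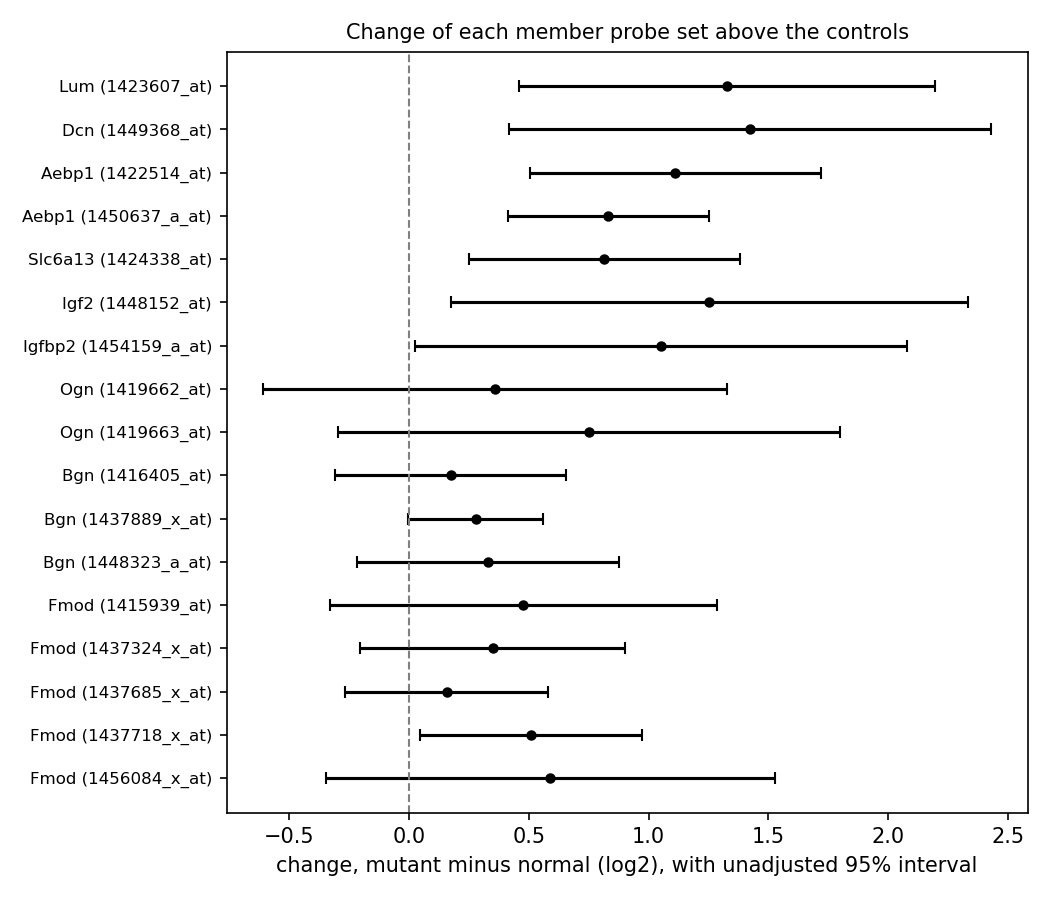
Log2 difference of mutant minus normal (x axis) for each of the 17 member probe sets above the controls, listed by gene and probe set on the y axis; bars are 95% intervals from limma, not adjusted for the number of probe sets. All 17 points lie above 0, from 0.16 for a Fmod probe set to 1.42 for Dcn, and the intervals of Lum, Dcn, Aebp1, Slc6a13, Igf2 and Igfbp2 lie above 0, as does that of 1 Fmod probe set.

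The members differed among themselves in how mutants 2 and 4 compared with the normals. For Lum, Aebp1 and Slc6a13 these animals were above all 4 normals. By the probe set of the highest mean per gene, neither lay above all normals for Igfbp2, Ogn, Bgn and Fmod. For Dcn and Igf2 only mutant 4 lay above them. On some of the other Bgn and Fmod probe sets, mutant 4 did lie above all normals. Mutants 1 and 3, the arrays with high choroid plexus genes, were also the highest pair for 7 of 9 members. Leaving them out therefore lowers the mutant means of those 7 whatever the choroid plexus content. Without mutants 1 and 3, the log2 differences were 0.77 ± 0.31 for Lum, 0.66 ± 0.28 for Dcn, 0.66 ± 0.23 for Aebp1 and 0.59 ± 0.26 for Slc6a13 (SE, 2 mutants and 4 normals, limma adjusted p = 0.782 to 0.820). In the same fit, Igf2 differed by 0.65 ± 0.52, Igfbp2 by 0.36 ± 0.37 and Fmod by 0.033 ± 0.34, while Ogn (-0.41 ± 0.19) and Bgn (-0.094 ± 0.22) had the opposite sign. With the choroid plexus mean as a covariate the difference was 0.50 ± 0.21 for Lum, 0.61 ± 0.39 for Dcn, 0.59 ± 0.21 for Aebp1 and 0.59 ± 0.32 for Slc6a13. It was 0.44 ± 0.46 for Igf2 and 0.11 ± 0.30 for Igfbp2 (SE, limma adjusted p = 0.9999 for each).

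**Figure D3:**
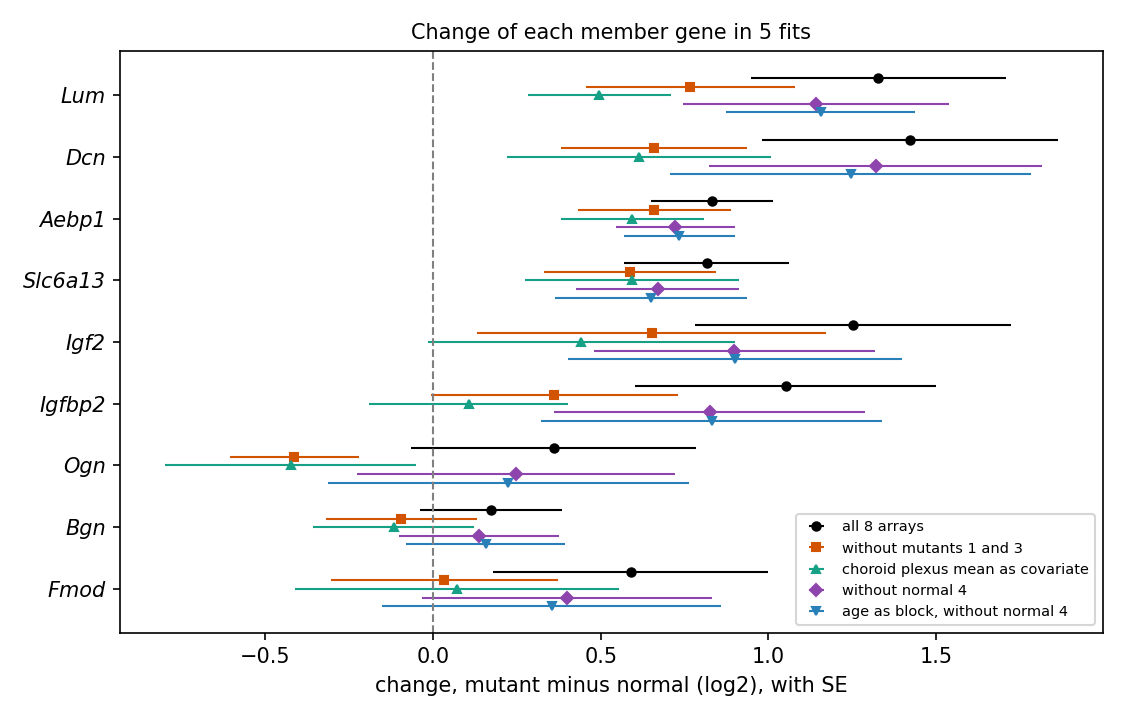
Log2 difference of mutant minus normal (x axis, with SE) for each gene (y axis) in the fit of all 8 arrays and in 4 alternatives. Aebp1 and Slc6a13 moved the least between fits, Igfbp2 was at 0.11 with the choroid plexus mean as a covariate, and Ogn and Bgn had the opposite sign in 2 of the alternatives.

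Animals of 1 age can be set side by side, since 3 ages occur in both groups. At 38.3 weeks, the female mutant 1 was above the female normal 1 for 8 of 9 genes, by 2.28 for Igfbp2, 1.95 for Dcn, 1.93 for Igf2 and 1.88 for Lum on the log2 scale. Normal 1 is the array with a 3 prime minus 5 prime difference of 3.58, and mutant 1 had the highest choroid plexus mean (8.11). The part of either in these differences was not tested. At 25.6 weeks, the male mutant 3 was above the male normal 2 for 9 of 9 genes, but the male mutant 2 for only 4 of 9. Mutant 3 exceeded mutant 2 in all 9 genes, by 2.07 for Ogn, 2.03 for Dcn and 1.96 for Fmod. At 19.6 weeks, mutant 4 was above normal 3, of the other sex, for 7 of 9 genes. Normal 4, at 14.6 weeks, had no mutant of its age, and it was the lowest array for 7 of 9 genes. Its low values and its age cannot be told apart. With age as a fixed block and without normal 4, the log2 differences were 1.16 ± 0.28 for Lum, 1.25 ± 0.54 for Dcn, 0.73 ± 0.16 for Aebp1, 0.65 ± 0.29 for Slc6a13 and 0.90 ± 0.50 for Igf2 (SE, limma adjusted p = 0.9999 for each).

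Both groups held 2 males and 2 females, and the difference between genotypes was compared between the sexes. None of the 19 member probe sets passed in the limma interaction test, beside 0% of all probe sets, and none was under an unadjusted p of 0.05, beside 10.5% of all. The nearest was Igf2, with means of 8.70 in mutant males and 8.22 in normal males, and of 9.15 in mutant females and 7.13 in normal females. Its male minus female difference was -1.54 ± 0.86 on the log2 scale (SE, 2 animals per cell, limma adjusted p = 0.571). The low female normal mean includes normal 4.

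Other genes of meningeal and perivascular fibroblasts were read for comparison, from a list without the 9 members. Of 29 measured genes, 26 had a higher mean in mutants, 0 passed in limma, and the median difference was 0.42. At an unadjusted p under 0.05, 10 were higher and 2 lower. The lower ones were Col6a1 (-1.76 ± 0.76 SE, limma adjusted p = 0.835) and Cldn11 (-0.73 ± 0.20 SE, limma adjusted p = 0.565). Col6a1 read 4.23, 4.29, 5.99 and 4.68 in mutants 1 to 4, against 7.35, 4.29, 6.68 and 7.90 in normals 1 to 4. For Col6a1, normal 2 lay within the range of the mutants. The smallest p were those of Cyp1b1, a cytochrome P450 gene (1.11 ± 0.22 SE, limma adjusted p = 0.254), and Fbln1, the gene of the matrix protein fibulin 1 (1.18 ± 0.29 SE, limma adjusted p = 0.440). Cyp1b1 read 5.83, 5.61, 6.02 and 5.62 in mutants 1 to 4, against 5.20, 4.71, 4.61 and 4.11 in normals 1 to 4. Fbln1 read 6.94, 7.48, 6.75 and 7.66 in mutants, against 5.55, 6.66, 5.73 and 6.16 in normals. Both separated the groups, and Fbln1 was highest in mutants 2 and 4, not in 1 and 3. The fibrillar collagen gene Col1a1 and the transcription factor gene Tbx18 were not above the controls in any array, and Foxc1, a transcription factor gene of the meninges, had log2 levels of 5.50, 5.85, 6.02 and 5.80 in mutants 1 to 4, against 6.08, 5.29, 5.12 and 4.57 in normals 1 to 4. These 3 were chosen after their values were seen.

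Families related by sequence or function were read as well. Of 7 further small leucine-rich repeat proteoglycan genes, 0 passed in limma, 1 was higher and 1 lower at an unadjusted p under 0.05, and the median difference was -0.0016. Kera, Aspn and Chad were not above the controls in any array, and Prelp, beside Fmod, differed by 0.87 ± 0.35 (SE, limma adjusted p = 0.817). Prelp had log2 levels of 6.76, 6.32, 6.83 and 6.43 in mutants 1 to 4, against 6.74, 5.78, 4.91 and 5.44 in normals 1 to 4, with normal 1 inside the range of the mutants. Of 11 genes that process or crosslink collagen, 0 passed in limma, 4 were higher at an unadjusted p under 0.05 and 0 lower, with a median of 0.34. They were led by Plod2, a collagen lysyl hydroxylase gene (0.51 ± 0.15 SE, limma adjusted p = 0.648), and Thbs2, the gene of thrombospondin 2 (0.72 ± 0.24 SE, limma adjusted p = 0.748). Of 3 further Slc6 transporter genes, 0 passed in limma or at an unadjusted p under 0.05, with Slc6a8 at 0.14 ± 0.20 (SE).

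**Figure D4:**
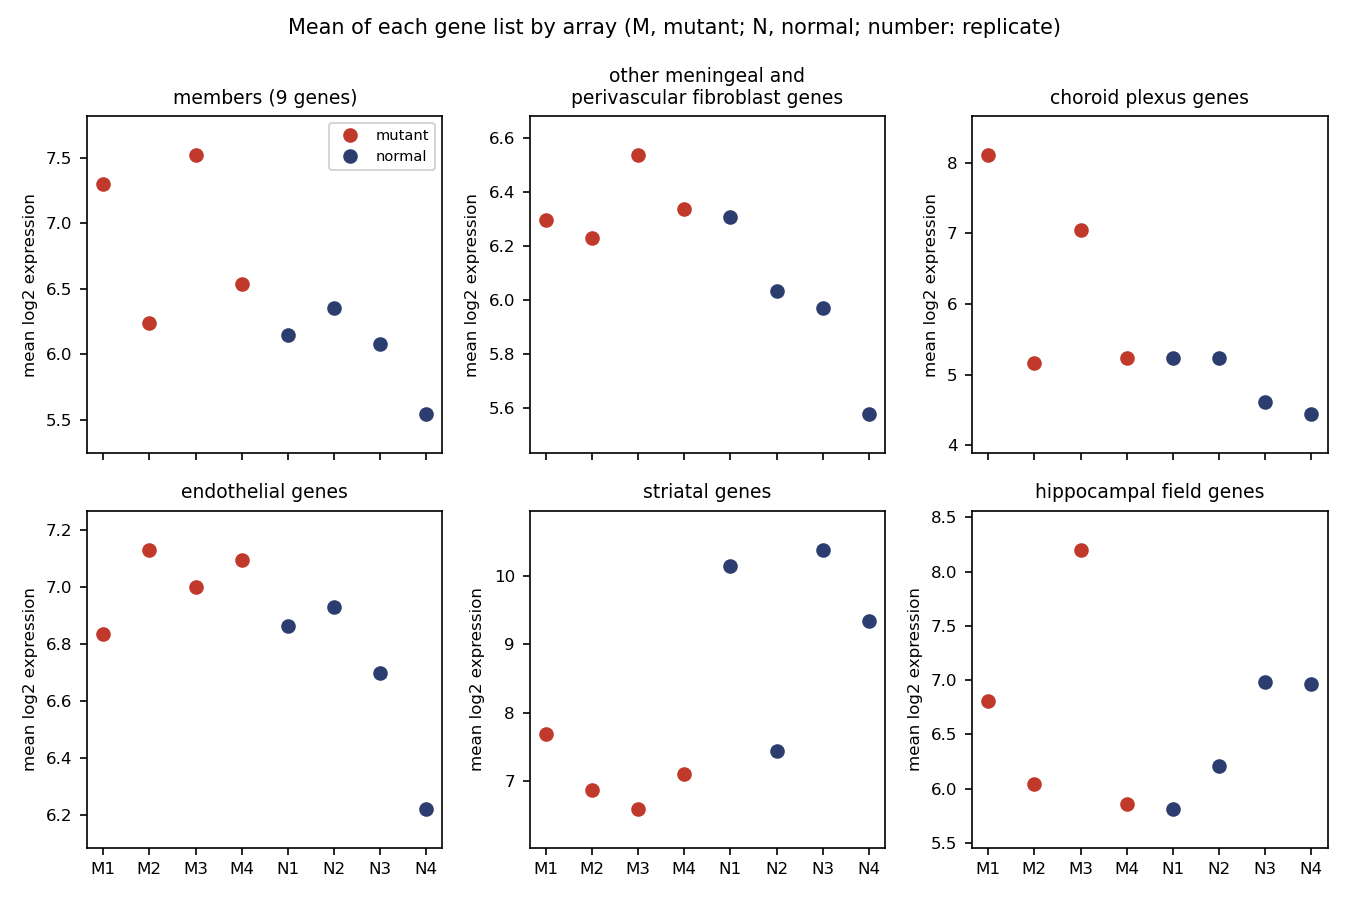
Mean log2 expression (y axis) of 6 gene lists in each array, mutants (M1 to M4) left and normals (N1 to N4) right; each point is 1 array. The members and the choroid plexus genes were both highest in mutants 1 and 3, with choroid plexus means of 8.11 and 7.05. The striatal means lay at 6.60 to 7.70 in mutants, against 7.44 in normal 2 and 9.34 to 10.4 in normals 1, 3 and 4.

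Markers of other cell types that the tissue could hold were read beside the members, and their part in the differences was not tested beyond the fits above. All 11 measured choroid plexus genes were above the controls in some array and had a higher mean in mutants (median difference 1.70, 0 past in limma, 5 higher at an unadjusted p under 0.05). Ttr, the transthyretin gene of that epithelium, chosen after its values were seen, read 13.9, 11.8, 13.7 and 11.5 in mutants 1 to 4, against 11.9, 12.1, 11.4 and 8.22 in normals 1 to 4. Mutants 1 and 3 were highest and normal 4 lowest, as for Igf2 and Igfbp2. Otx2 (1.30 ± 0.49) and Cldn2 (1.55 ± 0.61) had the smallest p of that list (SE, limma adjusted p = 0.809 each), and Otx2 differed by 0.77 without normal 3. Unlike Ttr, Otx2 was lowest in normal 3 (3.92), and mutant 3 was its lowest mutant (6.37). Of 15 endothelial genes, all had a higher mean in mutants, by a median of 0.26, 0 past in limma, with list means between 6.83 and 7.13 in mutants, and between 6.22 and 6.93 in normals. Vwf (1.05 ± 0.43) and Kdr (0.37 ± 0.15) had the smallest p of these (SE, limma adjusted p = 0.821 and 0.826), and without normal 4 they differed by 0.65 and 0.25.

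Of 11 pericyte and smooth muscle genes, 8 had a higher mean in mutants and 0 passed in limma, and the list means lay between 5.70 and 5.89 in mutants, and between 5.47 and 5.93 in normals. Notch3 (0.49 ± 0.22) and Mcam (-0.64 ± 0.31) had the smallest p (SE), with Notch3 at 0.31 without mutant 2 and Mcam at -0.31 without normal 1. Of 9 border macrophage genes, 4 had a higher mean in mutants, and only Ms4a7 passed in limma (1.88 ± 0.23 SE, adjusted p = 0.0367). At an unadjusted p under 0.05, 1 was higher and 1 lower. The lower one was Cd163, a scavenger receptor gene, at -1.08 ± 0.24 (SE, limma adjusted p = 0.381), with all mutants below all normals. Cd163 lay below the controls in every mutant and in normal 4, and above them only in normals 1, 2 and 3. The means of that list lay between 4.48 and 4.86 in mutants, and between 4.13 and 4.74 in normals. Of 4 melanocyte genes, 3 had a higher mean in mutants and 0 passed, with list means between 3.99 and 4.85 in mutants, and between 3.80 and 4.58 in normals. Dct, a pigment enzyme gene, read 6.61, 5.75, 5.11 and 6.05 in mutants 1 to 4, against 4.60, 4.23, 4.51 and 4.95 in normals 1 to 4 (1.30 ± 0.30 SE, limma adjusted p = 0.404). Its groups did not overlap, while Tyr was not above the controls in any array. Tyrp1, chosen after its values were seen, did overlap. It read 3.43, 5.48, 3.46 and 5.74 in mutants 1 to 4, against 6.18, 3.60, 2.97 and 3.17 in normals 1 to 4.

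All 5 ependymal genes had a higher mean in mutants and 0 passed, with list means between 6.30 and 7.39 in mutants, and between 5.97 and 6.98 in normals. Pltp (0.76 ± 0.24) and Foxj1 (0.54 ± 0.24) had the smallest p of that list (SE). Of 9 microglial genes, 3 had a higher and 6 a lower mean in mutants, 0 passed, and the median difference was -0.19. At an unadjusted p under 0.05, 2 were higher and 0 lower. These 2 were Fcrls (0.89 ± 0.16) and C1qa (1.80 ± 0.70, SE). The list means lay between 7.26 and 7.65 in mutants, and between 7.02 and 7.52 in normals. C1qa was lowest in normal 1, at 5.72, and differed by 1.08 without that array. Of 10 astrocyte genes, 9 had a higher mean in mutants, and Gfap, an intermediate filament gene of astrocytes, passed (2.27 ± 0.22 SE, limma adjusted p = 0.0152). Astrocyte means lay between 9.48 and 9.61 in mutants, and between 8.92 and 9.28 in normals.

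Among regional lists, 3 of 7 hippocampal field genes had a higher and 4 a lower mean in mutants, and 0 passed. The smallest p were those of Prox1 (0.92 ± 0.51) and Bok (0.52 ± 0.32, SE), both higher. Prox1 lay below the controls in mutant 1 and in normals 2, 3 and 4. It was highest in mutants 2 and 4, at 5.08 and 4.83, where the list means were the lowest among mutants (6.04 and 5.86). The means of that list lay between 5.86 and 8.20 in mutants, with mutant 3 highest, and between 5.81 and 6.98 in normals. All 8 thalamic and habenular genes had a higher mean in mutants and 0 passed, with Slc17a6 at 0.79 ± 0.77 and Lef1 at 0.61 ± 0.65 (SE). Their means were 7.61, 9.56, 6.48 and 9.37 in mutants 1 to 4, against 8.46, 8.65, 7.12 and 6.49 in normals 1 to 4. Mutants 2 and 4 were thus highest, and mutants 1 and 3 lay below normals 1 and 2. All 6 striatal genes had a lower mean in mutants and 0 passed in limma. At an unadjusted p under 0.05, 6 were lower, beside 306 of all 12393 genes. Penk was at -3.34 ± 0.76 and Rgs9 at -2.37 ± 0.61 (SE, limma adjusted p = 0.383 and 0.498). The list mean of normal 2 (7.44) lay within the range of the mutants.

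The genes whose values were most like the mean of the 9 members over the 8 arrays were picked by Pearson's r among 10338 other genes above the controls. They were Col8a1, a collagen chain gene (r = 0.961), Pecr, a peroxisomal enzyme gene (r = 0.958), Sphk1, a sphingosine kinase gene (r = 0.949), and Rcn3, the gene of a calcium-binding protein of the endoplasmic reticulum (r = 0.946). Serping1, the complement C1 inhibitor gene (r = 0.939), Ppib, a proline isomerase gene of collagen folding (r = 0.937), Icosl (r = 0.936) and Cldn2, a choroid plexus claudin gene (r = 0.931), followed. The arrays share genotype and tissue content, and the genes were selected for r, so the values are a description. Col8a1 read 5.67, 4.90, 5.41 and 5.02 in mutants 1 to 4, against 4.81, 4.88, 4.72 and 4.43 in normals 1 to 4. Like most members it was highest in mutants 1 and 3 and lowest in normal 4.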

How the data were processed

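RNA from the hippocampus of 4 mutant and 4 normal mice was hybridised to 1 Affymetrix array per animal. Each deposited value is a log2 level of 1 probe set, computed by the authors with RMA, per the submitters' processing notes, which name GCOS 1.4 too. Background correction and normalization could not be repeated, and the build behind the probe sets is not given in the sources used here. Of 22690 probe sets, 64 are controls. One symbol was listed for 20380, several for 691 and no gene for 1555, and 20351 matched RefSeq by gene ID. Replicate numbers follow deposition order, name the animals and pair nothing. Precision is limited by the number of animals.

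Genotypes were compared with lmFit and eBayes of limma (version 3.58.1, R 4.3.3) over all 22626 remaining probe sets, with no filter on dim signal, Benjamini-Hochberg adjustment and a threshold of 0.05. Differences are mutant less normal, with moderated SE. Exact permutation tests used the 70 arrangements of 8 arrays. The members and lists were chosen with earlier results of these data known. The text names all members, the genes of each other list past the threshold (or the 2 of smallest p), the 8 genes most like the members, and Gusb. Any further gene was picked with its values in view. The 22 alternatives concerned probe sets, dim signals, normalization, variance model, array weights, sex, age, choroid plexus signal and left-out animals.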

Additional observations from a re-analysis of the deposited data

Results flagged for a closer look

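One value stood apart from the other 3 of its group by Dixon's test. Normal 1 had a log2 level of 5.76 on 1 of the 3 Bgn probe sets, against 5.51 to 5.55 in the other normals. Of 34 combinations of group and probe set examined this was the only one, and chance alone marks about 1 in 20. Normal 1 also had a 3 prime minus 5 prime difference of 3.58, whose part in this value was not tested.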

How the results depend on the processing

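Over 22 alternatives, no member probe set passed an adjusted p of 0.05 in limma, and 2 to 10 had an unadjusted p under 0.05. Of 350 recomputed member differences, 339 kept their sign and 11 did not. The 11 were all of Ogn, Bgn and Fmod. With array weights, 1 Ogn probe set was at -0.010. With the choroid plexus mean as a covariate, the Ogn probe sets were at -0.42 and -0.066, Bgn at -0.12 and -0.065 and Fmod at -0.061. Without mutants 1 and 3, Ogn was at -0.41, Bgn at -0.094 and -0.075 and Fmod at -0.032. Leaving out each animal, the brighter Ogn probe set ran from -0.030, without mutant 3, to 0.66. Over the same fits Lum ran from 1.00 to 1.54, Dcn from 1.05 to 1.72, Igf2 from 0.90 to 1.59, Igfbp2 from 0.69 to 1.33, the brightest Bgn probe set from 0.039 to 0.33 and the brightest Fmod probe set from 0.22 to 0.87. Without overlap were 4 to 8 member probe sets, with 8 without mutant 2, beside 2.78% of all probe sets, and 7 without normal 2, beside 4.09% of all.

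Of all probe sets, 20 passed with all arrays. The count was 13 with 1 probe set per gene and 13 without probe sets whose suffix warns of cross-hybridisation, 60 with array weights, 7 with sex and 10 with age as a covariate, 2 with the choroid plexus mean and 3 without mutants 1 and 3. With age as a fixed block and without normal 4, chosen after seeing the data, limma called 0, and 740 had an unadjusted p under 0.05. Leaving out each animal gave 6 to 27. The cause of these shifts was not tested. No paired analysis was possible because the labels give no replicate numbers, so same-age animals served as blocks, and with age as a random block 17 probe sets passed. The 4 animals per group limit the precision of every difference.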
